A study of Mus musculus with 19 samples.

Results

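The genes of the mouse Fc gamma receptors were followed across sorted bone marrow monocytes, with REP mice as the source. The set was taken by name and holds 6 genes of the 50854 in the count table: Fcgr1, Fcgr2b, Fcgr3 and Fcgr4, which encode the receptors, Fcer1g, which encodes the signaling chain that activating receptors share, and Fcgrt, which encodes the neonatal Fc receptor. All 6 were tested. REP mice carry fluorescent reporters for chemokine receptors, CCR1 and CCR2 among them, and all mice were female and 8 to 12 weeks old. Monocytes expressing CCR1 and CCR2 (CCR1/2+ve) or CCR2 only (CCR2+ve) were sorted from resting mice (4 libraries each) and from inflamed mice (3 libraries of CCR1/2+ve, replicates 2 to 4, and 4 of CCR2+ve cells). Inflamed mice had received IL-3, IL-6, GM-CSF and IFN-α from an osmotic pump for 7 days, and whether the resting mice carried a pump is not given in the labels. A further 4 libraries are labelled inflamed CCR1, and how these cells were gated is not given in the sources used here. The labels do not say that replicates came from separate animals, so p values measure the spread between these libraries, which may be technical. Between 22268658 and 30502009 reads were counted on genes per library.

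Fc gamma receptors bind the constant part of IgG. FcγRI, encoded by Fcgr1, binds monomeric IgG with high affinity, whereas FcγRIII (Fcgr3) and FcγRIV (Fcgr4) bind immune complexes. These 3 activating receptors signal through the ITAM of the FcRγ chain (Fcer1g), and the Src and Syk kinases act downstream. FcγRIIB (Fcgr2b) carries an ITIM, recruits the phosphatase SHIP and dampens the same signals. The neonatal receptor FcRn (Fcgrt) sits in endosomes with β2-microglobulin and returns IgG to the cell surface.

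In the GENCODE M21 annotation of GRCm38, 4 of the genes lie on chromosome 1. Fcgr2b (ENSMUSG00000026656) was at chr1:170958617-170976547 on the minus strand, Fcgr4 (ENSMUSG00000059089) at chr1:171018920-171029761 on the plus strand, Fcgr3 (ENSMUSG00000059498) at chr1:171051174-171064935 and Fcer1g (ENSMUSG00000058715) at chr1:171229572-171234365, both on the minus strand. The gaps between these neighbors were 42372, 21412 and 164636 bases. Fcgr1 (ENSMUSG00000015947) was at chr3:96282909-96293969 and Fcgrt (ENSMUSG00000003420) at chr7:45092990-45103851, both on the minus strand. Fcgr2b and Fcgr3 share sequence that bears on their counts. Of the 35-base stretches of the Fcgr3 transcripts, 12.29% also occurred in Fcgr2b, and 3.79% of those of Fcgr2b occurred in Fcgr3. The longest shared coding run was 129 bases, in exons 3 and 4 of a Fcgr2b transcript with 8 exons and of a Fcgr3 transcript with 5 exons. It is shown because reads that matched both genes equally well were left out by the rule of 1 alignment, which can lower the counts of both:
Shared run of Fcgr2b and Fcgr3: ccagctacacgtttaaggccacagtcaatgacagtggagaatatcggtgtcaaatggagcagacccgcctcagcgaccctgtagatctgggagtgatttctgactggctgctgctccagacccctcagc
The run lies between 170966674 and 170968081 of chromosome 1 in Fcgr2b and between 171054167 and 171057792 in Fcgr3, with an intron inside it in each gene. In addition, 2.68% of the exonic bases of Fcgr2b overlapped Gm38204, and which strand was counted is not given in the sources used here.

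The promoters of the activating receptors are shown because interferon and myeloid transcription factors are known to act on such genes. RefSeq promoter sequences (GRCm38.p6) were found for all 6 members. In the 250 bases before the start, both strands were searched for the STAT motif TTCNNNGAA (GAS), the PU.1 core GAGGAA and the ISRE. GAS was found in Fcgr1 alone of the 6, at bases -109 to -101, and in 7.18% of 27025 promoters. The PU.1 core was found in Fcgr1, Fcgr3 and Fcgr4, and in 23.13% of promoters. The ISRE was found in Fcgr4 alone of the 6, at -73 to -64, and in 3.04% of promoters. None of the 3 motifs was found in this window of Fcgr2b, Fcer1g or Fcgrt. The RefSeq starts differ from the GENCODE genes above. Of the 120 bases before the start, 57 lie in GENCODE exons of Fcgr2b, 29 of Fcgrt, 16 of Fcer1g and 6 of Fcgr4. The window of Fcgr3 lies inside its GENCODE gene, outside exons. A motif found or missing is therefore read for these windows only. The 120 bases before the start are given 5′ to 3′, with GAS and the PU.1 core (here on the other strand) in capitals:
Fcgr1, chr3:96293970-96294089, minus strand: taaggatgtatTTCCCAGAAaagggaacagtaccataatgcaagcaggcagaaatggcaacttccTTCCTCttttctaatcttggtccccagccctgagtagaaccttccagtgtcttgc
Fcgr3, chr1:171059404-171059523, minus strand: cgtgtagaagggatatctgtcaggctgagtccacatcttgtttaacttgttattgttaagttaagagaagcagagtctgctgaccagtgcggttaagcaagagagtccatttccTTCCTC
Fcgr4, chr1:171018806-171018925, plus strand: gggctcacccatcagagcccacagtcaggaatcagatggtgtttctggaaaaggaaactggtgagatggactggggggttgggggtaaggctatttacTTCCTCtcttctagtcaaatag
These matches are letters in a window and no binding was measured.

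Next, the labelled cell type was checked against markers. Values are CPM, the reads of a gene scaled to a common library total with edgeR's TMM factors over the 19 libraries. In the 15 libraries of CCR1/2+ve and CCR2+ve cells, all 13 monocyte markers averaged at least 10 CPM in each group. Their summed level was 33780 to 47230 CPM in resting CCR1/2+ve, 50410 to 58290 in resting CCR2+ve, 56950 to 61630 in inflamed CCR1/2+ve and 52650 to 64810 in inflamed CCR2+ve libraries. The libraries labelled inflamed CCR1 went against the label of monocytes: their monocyte sum was 7961 to 12620 CPM, Csf1r averaged 17.7 ± 4.4 CPM (SD, n = 4) against 1504 ± 162 (SD, n = 4) in inflamed CCR2+ve cells, and Ccr2 5.82 ± 2.56 against 1251 ± 125. Lyz2 (8277 CPM) carried most of that monocyte sum, and 8 of the 13 monocyte markers still averaged at least 10 CPM. Ly6c2 was at 1421 ± 49 against 1855 ± 407 CPM in inflamed CCR2+ve cells, and Itgam at 91.8 ± 10.3 against 113.6 ± 6.1. The 10 markers of the list named mature neutrophil summed to 92890 to 136500 CPM in the inflamed CCR1 libraries, against 537 to 2859 in the other 15. Ngp (86030 CPM), Camp (19960) and Ltf (8522) carried this sum. Mature is the name of the list only, and the stage of these cells was not tested. Not all of that list was high: Mmp8 averaged 9.10 CPM in inflamed CCR1 against 1044 in inflamed CCR2+ve and 1606 in inflamed CCR1/2+ve cells. Against at most 1.08, 2.68 and 0.133 CPM in the other groups, Ly6g (14.4), Mmp9 (4.72) and Stfa2l1 (0.339) had their highest mean in inflamed CCR1, though at low levels. The 6 early granule markers in the table summed to 55140 to 61870 CPM there, with Elane the highest. Ccr1 itself averaged 38.0 ± 4.6 CPM in these libraries, its lowest group mean. They are called inflamed CCR1 by their label only.

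**Figure D1:**
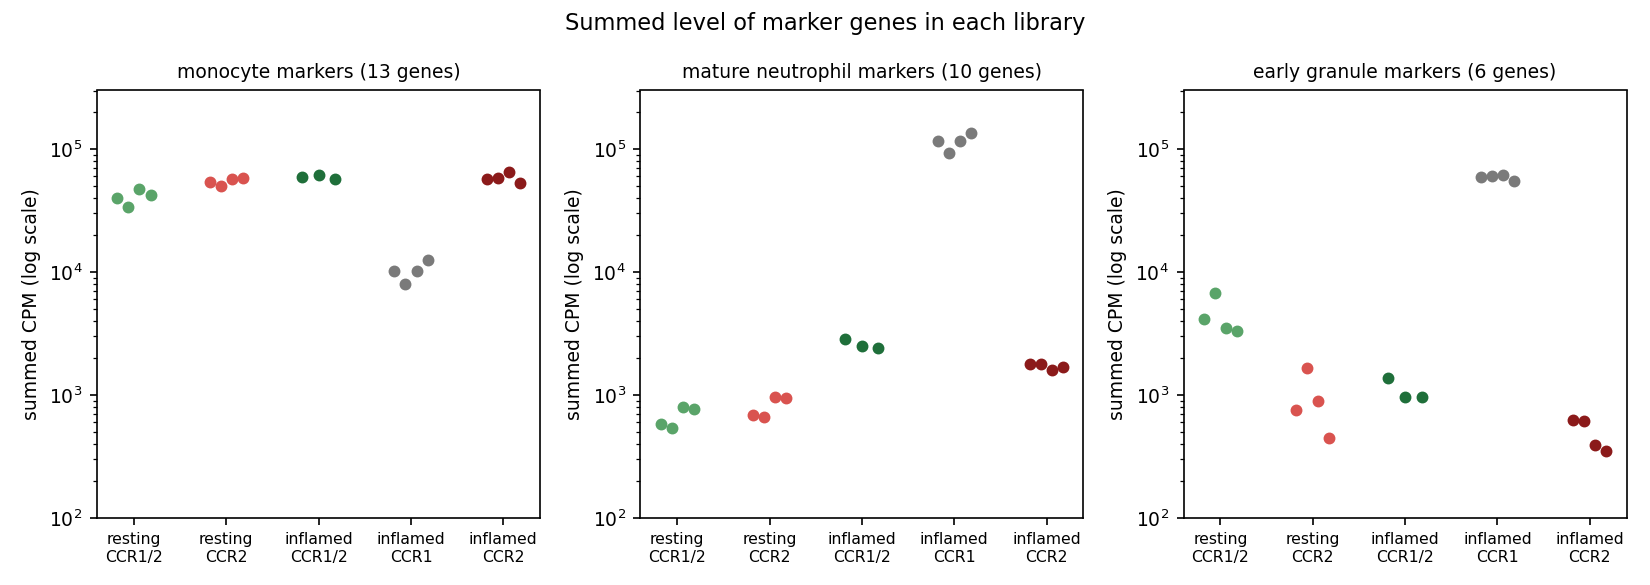
Summed CPM on a log scale of the monocyte, mature neutrophil and early granule markers, with 1 point per library in each of 5 groups. The inflamed CCR1 libraries lie below all others for monocyte markers (at most 12620 CPM) and above all others for the neutrophil and granule lists (at least 92890 and 55140 CPM).

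Early granule markers also differed between the resting populations, with sums of 3291 to 6794 CPM in CCR1/2+ve and 445 to 1643 in CCR2+ve libraries, and so did dendritic cell markers (160 to 420 against 816 to 2291 CPM, Cd74 the highest). Summed B cell markers, nearly all Ighm, were 458 to 1691 CPM over all 19 libraries. The other lists (Ly6C-low monocyte, T and NK cell, tissue macrophage, basophil and mast cell, eosinophil, erythroid and megakaryocyte) summed to at most 831 CPM in the 15 libraries, and Nkg7 (1562 ± 152 CPM) and Hdc (719.6 ± 45.7) led 2 of these lists in inflamed CCR1. Of the defining markers, Stfa2l1 was at 0 in both resting groups, Gfi1 and Pax5 in inflamed CCR2+ve, Epx in both resting groups and inflamed CCR1/2+ve, and Il5ra in both CCR1/2+ve groups and inflamed CCR2+ve libraries. The megakaryocyte marker Gp1bb was at 0 in both CCR1/2+ve groups, Gp9 in inflamed CCR1/2+ve, and Gp9 and Gp1bb in inflamed CCR2+ve libraries.

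The receptor genes were then ranked by level per kb of exon, the scale on which genes can be compared. The signaling chain Fcer1g was the highest in all 5 groups, followed by Fcgr3. Fcer1g held rank 9 to 15 of 18618 genes with a length in the CCR1/2+ve and CCR2+ve groups and rank 54 in inflamed CCR1, and Fcgr3 held ranks 65 to 71 and rank 114. In resting CCR2+ve cells, Fcer1g was at 2663 ± 297 CPM per kb (SD, n = 4), Fcgr3 at 550.2 ± 52.7, Fcgrt at 69.7 ± 11.3, Fcgr1 at 52.4 ± 11.7, Fcgr2b at 50.9 ± 7.0 and Fcgr4 at 9.78 ± 3.42. With all annotated exons joined as length (the exon union), Fcgrt, Fcgr1 and Fcgr2b were thus close to each other there, while Fcgr4 was the lowest. In inflamed CCR2+ve cells the order changed: Fcgr1 (164.8 ± 25.9 CPM per kb) and Fcgr2b (156.5 ± 32.8) followed Fcer1g and Fcgr3, within their spread of each other and ahead of Fcgrt (48.8 ± 10.2) and Fcgr4 (8.34 ± 2.94). The closeness of Fcgr1 and Fcgr2b rests on the exon union, which is 5790 bases for Fcgr2b. Its longest transcript has 3544 bases and would place Fcgr2b higher, while Fcgr1 has 2589 bases on both. Fcgr1 held rank 8487 and Fcgrt rank 10201 in inflamed CCR1.

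**Figure D2:**
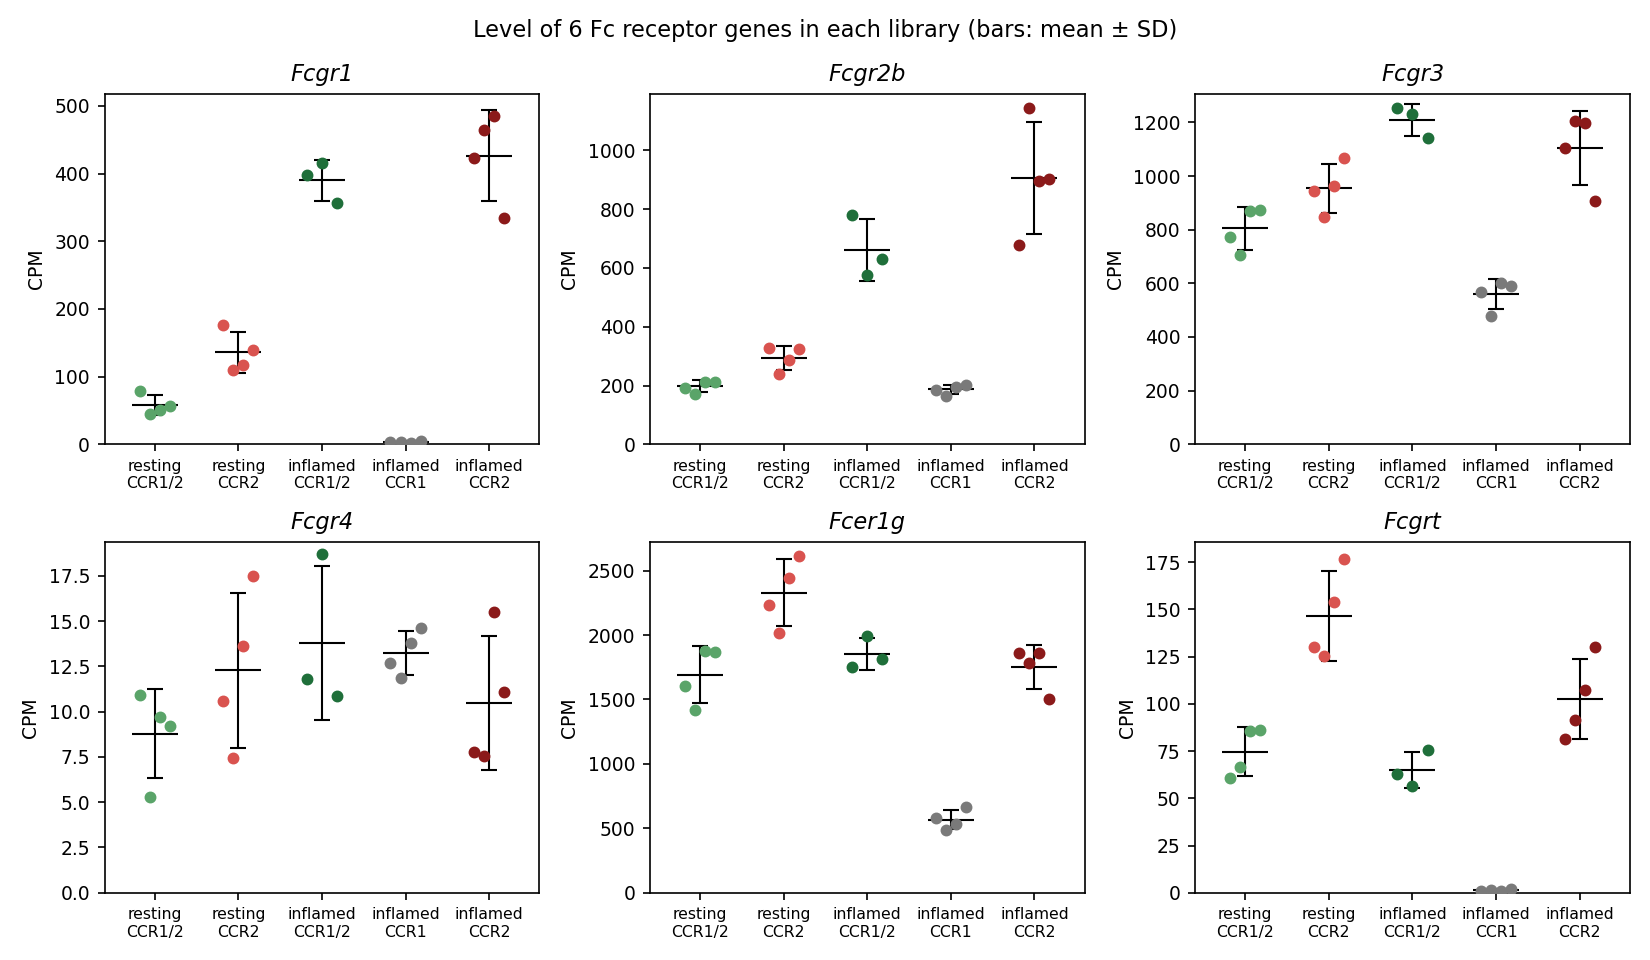
CPM of each of the 6 genes (linear axes from 0) in the 19 libraries, with 1 point per library and bars for mean ± SD in each of 5 groups. Fcgr1 and Fcgr2b lie higher in the inflamed CCR1/2+ve and CCR2+ve libraries than in any resting library, Fcgr4 stays between 5.29 and 18.7 CPM everywhere, and Fcgr1 and Fcgrt are at most 4.19 and 2.07 CPM in inflamed CCR1.

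Next, 6 comparisons were tested with edgeR's quasi-likelihood test on the 2 groups of each, adjusted over 18652 genes (Benjamini-Hochberg, two-sided). Calls needed an adjusted p below 0.05 together with a log2 fold change of 1 or more in either direction. Comparisons that share a group are not independent and are given side by side. Fold changes use the scaling of their 2 groups, so they can differ slightly from ratios of the CPM means. In resting cells, 1 of 6 members was called, Fcgr1, lower in CCR1/2+ve than in CCR2+ve cells, where 4.25% of all genes were called. Past the adjusted p alone, 4 members were lower in CCR1/2+ve cells and none higher, beside 16.9% of all genes. With inflammation, 2 members (Fcgr1 and Fcgr2b) were called higher in CCR2+ve cells, where 28.6% of genes were called, and the same 2 were called higher in CCR1/2+ve cells, where 28.5% were. A share of 2 of 6 is near that of all genes and is no result about the members. At an adjusted p below 0.05 alone, 2 members were higher and 2 lower in inflamed CCR2+ve cells, beside 47.8% of all genes, and 3 were higher and 0 lower in inflamed CCR1/2+ve cells, beside 46.0%. Of the genes called, 1748 were higher and 3579 lower in inflamed CCR2+ve cells, and 1709 higher and 3612 lower in inflamed CCR1/2+ve cells.

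Between the inflamed CCR1/2+ve and CCR2+ve cells, 0 of 6 members passed with edgeR, beside 0.145% of all genes past both cutoffs (27 genes) and 0.188% past the adjusted p alone. At an unadjusted p below 0.05 there were 2, Fcgr2b and Fcgrt, and DESeq2 passed 1, Fcgrt. Against inflamed CCR2+ve cells, 4 of 6 members were called lower in inflamed CCR1 libraries, where 31.3% of genes were called, and 5 of 6 passed the adjusted p alone, beside 48.1% of genes. Against inflamed CCR1/2+ve cells, 5 of 6 were called lower there, beside 27.7% of genes called and 43.2% past the adjusted p alone. In bulk RNA, fewer cells of a type and less RNA per cell cannot be told apart, and in these 2 comparisons the markers of monocytes were lower and those of neutrophils and their precursors higher together with the receptor genes. The part of cell composition in these results was not tested.

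**Figure D3:**
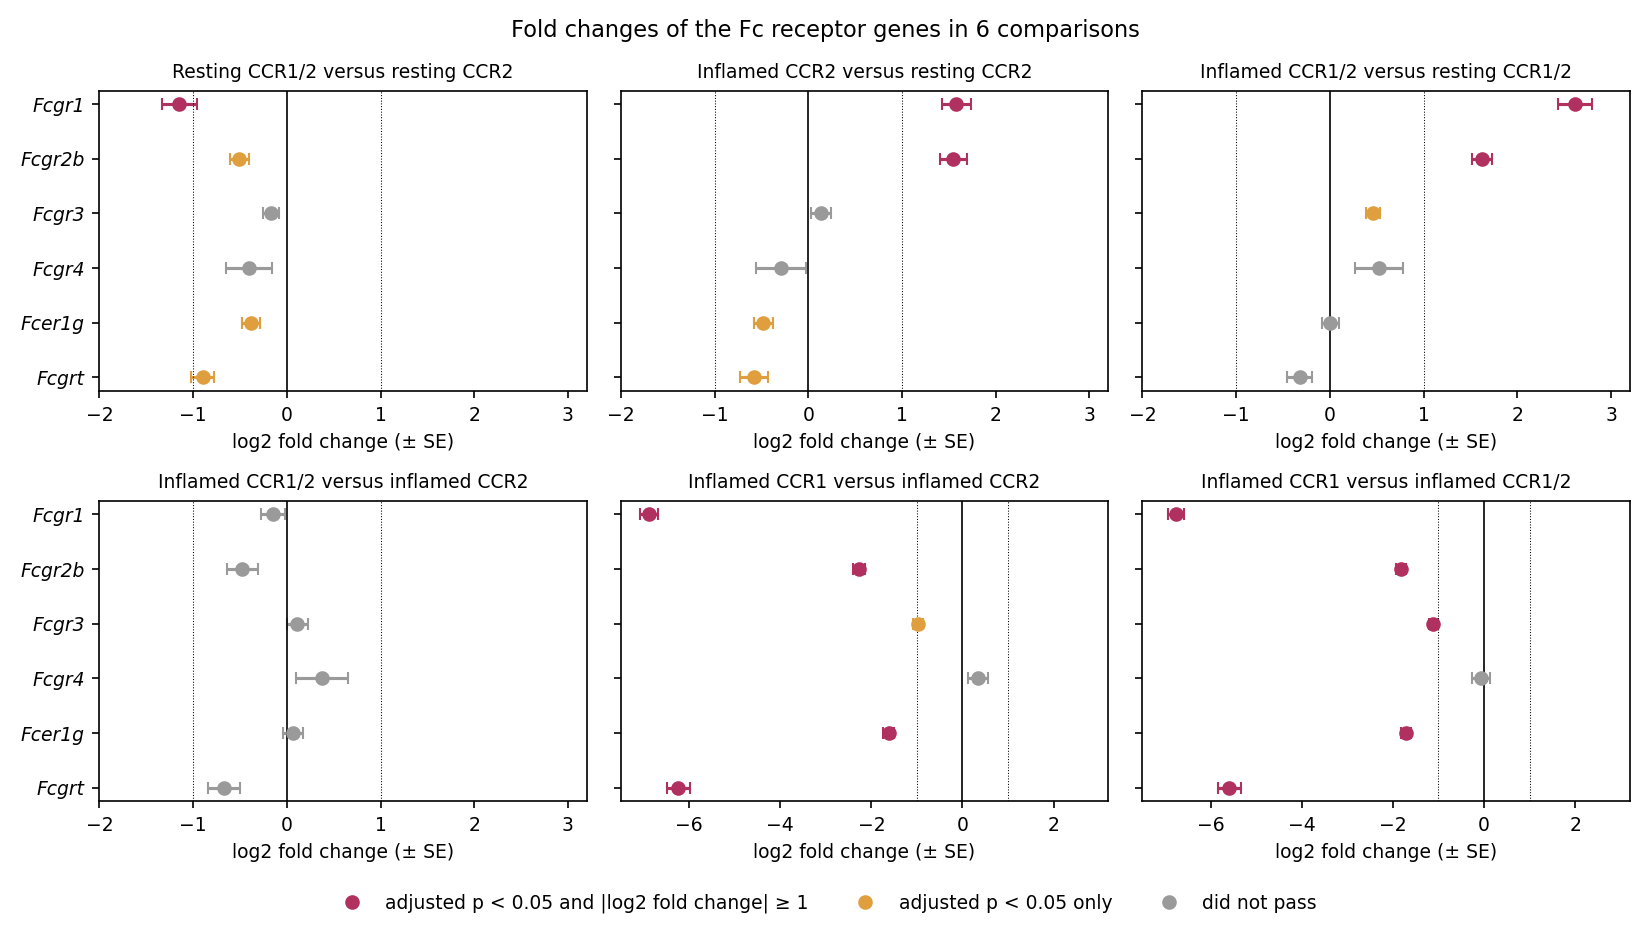
Log2 fold change ± SE of the 6 genes in 6 comparisons, the first-named group over the second, colored by whether both cutoffs, the adjusted p alone or neither was passed, with dotted lines at -1 and 1. Fcgr1 reaches 2.61 with inflammation in CCR1/2+ve cells and -6.88 in inflamed CCR1 against inflamed CCR2+ve cells, and Fcgr4 passed in none of the 6.

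Fcgr1, the high-affinity receptor, ranged from 2.45 to 485.7 CPM over the 19 libraries. In resting CCR1/2+ve libraries 1 to 4 it was at 79.2, 45.3, 50.8 and 57.1 CPM, and in resting CCR2+ve libraries 1 to 4 at 176.9, 109.8, 116.7 and 139.2 CPM. The groups did not overlap, and the library numbered 1 was the highest in each. Fcgr1 was lower in CCR1/2+ve cells, with a log2 fold change of -1.15 (SE 0.19, adjusted p = 0.0014). Within each replicate number, CCR2+ve over CCR1/2+ve was 2.23 to 2.44, a narrower range than that of the levels. Without resting CCR2+ve replicate 1 the log2 fold change was -0.97 (adjusted p = 0.0039), so Fcgr1 no longer met the fold cutoff. Beside it, the monocyte markers Csf1r (407 ± 68 against 837 ± 112 CPM) and Ccr2 (633 ± 109 against 1218 ± 181 CPM) were lower in the same libraries and the granule markers higher, and their part in the result was not tested.

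With inflammation Fcgr1 rose in both populations. In the same comparisons the levels of other marker lists differed, and their part in this and the other changes with inflammation was not tested. Mature neutrophil sums were 656 to 961 CPM in resting and 1600 to 1781 in inflamed CCR2+ve libraries, and 537 to 795 and 2407 to 2859 in CCR1/2+ve libraries. Mmp8, which was low in inflamed CCR1, was the highest of that list in each of these groups. Erythroid sums went the other way, from 91.6 to 280.2 CPM at rest to at most 4.61 in inflamed CCR2+ve libraries, and from 56.2 to 173.6 to at most 5.30 in CCR1/2+ve libraries. In CCR1/2+ve libraries, early granule sums were 3291 to 6794 CPM at rest and 955 to 1367 inflamed, and dendritic cell sums 160 to 420 and 880 to 1116. In CCR2+ve libraries both overlapped, at 445 to 1643 and 351 to 629, and at 816 to 2291 and 1257 to 4536 CPM. Cd74 was the highest dendritic cell marker in each of these groups, at 177.2 CPM in resting and 936 in inflamed CCR1/2+ve cells. The rest of that list did not rise as a set there. Flt3 fell from 5.28 to 0.977 and Cd209a from 13.1 to 0.704 CPM, while H2-Ab1 was at 41.5 and 44.9 and Xcr1 at 0.707 and 1.07 CPM. Tissue macrophage sums were higher in inflamed libraries of both populations, at least 658 in CCR1/2+ve and 599 in CCR2+ve against at most 326 and 431 CPM at rest. Adgre1 carried most of these sums, at 183.7 and 586.1 CPM in resting and inflamed CCR1/2+ve and 313.7 and 537.6 in CCR2+ve cells. The rest of that list was mixed in CCR1/2+ve cells. Vcam1 fell from 26.2 to 2.16 and C1qc from 10.7 to 1.86 CPM, while Axl rose from 12.4 to 37.2 and Mrc1 from 9.13 to 18.2 CPM. Turning to Fcgr1 itself, it was at 422.9, 464.3, 485.7 and 334.0 CPM in inflamed CCR2+ve libraries 1 to 4 and at 397.7, 415.9 and 357.2 CPM in inflamed CCR1/2+ve libraries 2 to 4. Every inflamed value was above every resting value. The log2 fold change was 1.58 (SE 0.15, adjusted p = 5.9e-07) in CCR2+ve and 2.61 (SE 0.18, adjusted p = 9.6e-07) in CCR1/2+ve cells. The latter stands beside a median of -0.25 over all genes tested, which was -0.17 with RLE size factors and -0.45 with total counts. The 2 inflamed populations overlapped, with a log2 difference of -0.15 (95% interval -0.45 to 0.16, adjusted p = 0.78). The difference between the populations in their response was 0.99 on the log2 scale (SE 0.25, adjusted p = 0.077), in an interaction test on 15 libraries. It did not pass, whereas with DESeq2 it was 1.05 (adjusted p = 0.0055). In that test edgeR passed 0 of 6 members, beside 0.397% of genes, 2 (Fcgr1 and Fcer1g) had an unadjusted p below 0.05, and DESeq2 passed these 2. Inflamed CCR1 libraries 1 to 4 had Fcgr1 at 3.73, 3.98, 2.45 and 4.19 CPM, from 53 to 89 reads. It was 118-fold lower than in inflamed CCR2+ve cells (log2 fold change -6.88, SE 0.19, adjusted p = 2.8e-14) and 108-fold lower than in inflamed CCR1/2+ve cells (-6.76, SE 0.18, adjusted p = 7.5e-12).

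Fcgr3, the low-affinity activating receptor, varied far less. Resting CCR1/2+ve libraries had 771, 706, 871 and 872 CPM and resting CCR2+ve libraries 943, 846, 962 and 1069 CPM, so the groups overlapped. The log2 difference was -0.17 (95% interval -0.37 to 0.03, adjusted p = 0.20). With the replicate number as a block it was also -0.17 but passed (adjusted p = 0.013), and CCR2+ve over CCR1/2+ve was 1.11 to 1.23 within the 4 numbers. Inflamed CCR1/2+ve libraries had 1255, 1230 and 1142 CPM, all above the resting ones, and Fcgr3 rose there by a log2 fold change of 0.46 (SE 0.08, adjusted p = 0.00046), short of the fold cutoff. Inflamed CCR2+ve libraries had 1104, 1205, 1198 and 909 CPM and overlapped with resting ones (0.14, 95% interval -0.10 to 0.38, adjusted p = 0.31). The difference in response was 0.28 (SE 0.14, adjusted p = 0.40), so a response in CCR1/2+ve cells alone was not shown. Fcgr3 was at 567, 478, 602 and 591 CPM in inflamed CCR1, below all other libraries. It was 1.97-fold lower than in inflamed CCR2+ve cells (log2 fold change -0.98, SE 0.11, adjusted p = 1.2e-06) and 2.16-fold lower than in inflamed CCR1/2+ve cells (-1.11, SE 0.09, adjusted p = 3.4e-07).

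Fcgr4, the receptor known from Ly6C-low monocytes and neutrophils, was near the bottom of the set. It was at 10.9, 5.29, 9.72 and 9.21 CPM in resting CCR1/2+ve, at 10.6, 7.46, 13.6 and 17.5 in resting CCR2+ve and at 7.79, 7.58, 15.5 and 11.1 in inflamed CCR2+ve libraries. It was at 11.8, 18.7 and 10.9 CPM in inflamed CCR1/2+ve and at 12.7, 11.8, 13.8 and 14.6 in inflamed CCR1 libraries. All groups overlapped with their neighbors in the order of means, and no comparison passed. The log2 differences were 0.53 (95% interval -0.10 to 1.15, adjusted p = 0.12) with inflammation in CCR1/2+ve cells and -0.29 (95% interval -0.90 to 0.32, adjusted p = 0.40) in CCR2+ve cells. Fcgr4 was the only member that did not pass in inflamed CCR1 against inflamed CCR2+ve cells (0.34, 95% interval -0.14 to 0.81, adjusted p = 0.22) or CCR1/2+ve cells (-0.06, 95% interval -0.52 to 0.39, adjusted p = 0.85). Its intervals were the widest of the set between the resting groups and with inflammation. Fcgr4 had 163 to 421 reads per library. Its SD was 27.8 to 35.3% of the mean in the CCR1/2+ve and CCR2+ve groups and 9.13% in inflamed CCR1, at 262 to 310 reads.

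Fcgr2b, the inhibitory receptor, followed Fcgr1 in direction in the resting and inflamed cells. It was at 193, 169.6, 214 and 212 CPM in resting CCR1/2+ve and at 329, 241, 286 and 323 CPM in resting CCR2+ve libraries, without overlap. Fcgr2b was lower in CCR1/2+ve cells (log2 fold change -0.51, SE 0.10, adjusted p = 0.0042), short of the fold cutoff. Inflamed CCR1/2+ve libraries had 780.5, 577 and 629.8 CPM and inflamed CCR2+ve libraries 679.5, 1145, 898 and 903 CPM. All were above the resting libraries, and Fcgr2b rose by 1.55 (SE 0.14, adjusted p = 3.6e-07) in CCR2+ve and by 1.62 (SE 0.10, adjusted p = 2.0e-07) in CCR1/2+ve cells on the log2 scale. The responses differed by 0.03 (95% interval -0.43 to 0.49, adjusted p = 0.99). Between the inflamed populations the log2 difference was -0.47 (95% interval -0.84 to -0.10, adjusted p = 0.38), with overlap. Unlike Fcgr1, Fcgr2b stayed readily detected in inflamed CCR1 libraries, at 186, 165, 195 and 203 CPM, a range that overlapped with that of resting CCR1/2+ve cells. It was 4.82-fold lower than in inflamed CCR2+ve cells (log2 fold change -2.27, SE 0.14, adjusted p = 4.6e-10) and 3.53-fold lower than in inflamed CCR1/2+ve cells (-1.82, SE 0.11, adjusted p = 9.8e-09). Since Fcgr2b and Fcgr3 share sequence, reads that fit both equally well were left out. The counts of both can be too low, and their changes are read with that limit.

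Fcer1g, the signaling chain, was at 1602, 1419, 1878 and 1870 CPM in resting CCR1/2+ve and at 2236, 2016, 2442 and 2616 CPM in resting CCR2+ve libraries. The groups did not overlap, and Fcer1g was lower in CCR1/2+ve cells (log2 fold change -0.38, SE 0.10, adjusted p = 0.017). Without resting CCR2+ve replicate 3 it did not pass (-0.37, adjusted p = 0.055). With inflammation Fcer1g fell by 0.48 on the log2 scale in CCR2+ve cells (SE 0.10, adjusted p = 0.0011), to 1862, 1783, 1863 and 1507 CPM. It was at 1752, 1990 and 1817 CPM in inflamed CCR1/2+ve libraries, where the log2 difference from resting cells was 0.01 (95% interval -0.22 to 0.23, adjusted p = 0.96). Its sign there depends on scaling, since on total counts the mean was 1934 CPM in resting and 1696 CPM in inflamed CCR1/2+ve cells. In CCR2+ve cells Fcer1g thus fell while Fcgr1, which it carries, rose. The difference in response was 0.44 (SE 0.14, adjusted p = 0.18) and did not pass, and with DESeq2 it was 0.50 (adjusted p = 0.0499). It was at 584, 489, 532 and 664 CPM in inflamed CCR1, 3.08-fold below inflamed CCR2+ve cells (log2 fold change -1.62, SE 0.11, adjusted p = 2.7e-09) and 3.27-fold below inflamed CCR1/2+ve cells (-1.71, SE 0.11, adjusted p = 2.2e-08).

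Fcgrt, the IgG recycling receptor, was the member whose level was highest in resting CCR2+ve cells along with Fcer1g. Resting CCR1/2+ve libraries had 60.6, 66.7, 85.5 and 86.0 CPM and resting CCR2+ve libraries 130.2, 125.4, 153.8 and 176.8 CPM, without overlap. It was lower in CCR1/2+ve cells (log2 fold change -0.90, SE 0.12, adjusted p = 0.00037), 1.80- to 2.15-fold within each replicate number. With inflammation, Fcgrt fell in CCR2+ve cells by 0.58 on the log2 scale (SE 0.15, adjusted p = 0.0053), to 81.3, 91.4, 107 and 130.3 CPM, with overlap. The inflamed CCR1/2+ve libraries had 63.1, 56.5 and 75.5 CPM, and the log2 difference from resting was -0.32 (95% interval -0.65 to 0.01, adjusted p = 0.074). Without inflamed CCR1/2+ve replicate 4 it was -0.46 and passed (adjusted p = 0.021). The 2 inflamed populations did not overlap, but the log2 difference of -0.67 (SE 0.17) did not pass (adjusted p = 0.19, and 0.047 with DESeq2). Inflamed CCR1 libraries had 0.864, 1.49, 0.970 and 2.07 CPM, from 19 to 44 reads. It was 75.7-fold lower than in inflamed CCR2+ve cells (log2 fold change -6.24, SE 0.25, adjusted p = 2.2e-11) and 48.1-fold lower than in inflamed CCR1/2+ve cells (-5.59, SE 0.25, adjusted p = 3.5e-09).

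The balance of activating to inhibitory receptor transcripts was described as the summed CPM per kb of Fcgr1, Fcgr3 and Fcgr4 over that of Fcgr2b, without a test. It was 14.5, 14.6, 14.3 and 14.6 in resting CCR1/2+ve libraries and 10.9, 12.9, 12.4 and 12.3 in resting CCR2+ve libraries. In inflamed cells it was 6.57, 8.87 and 7.40 in CCR1/2+ve and 6.86, 4.45, 5.74 and 4.24 in CCR2+ve libraries. Thus the inflamed CCR1/2+ve and CCR2+ve libraries all had a lower ratio than any resting library, and the 2 inflamed populations overlapped while the resting ones did not. The inflamed CCR1 libraries lay between (10.5, 10.0, 10.7 and 10.1). The mean was 12.1 ± 0.8 at rest and 5.32 ± 1.22 with inflammation in CCR2+ve cells (SD, n = 4 each), and 14.5 ± 0.1 (n = 4) and 7.61 ± 1.17 (n = 3) in CCR1/2+ve cells. Reads left out because they fit both Fcgr3 and Fcgr2b can shift the level of this ratio.

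The makeup of the activating receptors also differed. Fcgr1 made up 4.57 ± 1.19% of the summed CPM per kb of Fcgr1, Fcgr3 and Fcgr4 in resting CCR1/2+ve and 8.55 ± 1.67% in resting CCR2+ve libraries. It made up 17.6 ± 0.5% in inflamed CCR1/2+ve, 20.3 ± 0.6% in inflamed CCR2+ve and 0.421 ± 0.115% in inflamed CCR1 libraries. On the exon union, the ratio of Fcgr1 to Fcgr2b, which rose together, was 1.02 ± 0.13 in resting and 1.08 ± 0.26 in inflamed CCR2+ve cells. That difference was smaller than the spread between libraries, and the level of the ratio depends on the lengths taken. In CCR1/2+ve cells the ratio was 0.662 ± 0.173 at rest and 1.34 ± 0.24 in inflamed cells, without overlap. Finally, Fcer1g over the summed activating receptors was 3.92 ± 0.15 and 4.35 ± 0.19 in resting CCR1/2+ve and CCR2+ve libraries and 2.47 ± 0.18 and 2.49 ± 0.16 in the inflamed ones. This last ratio was lower in every inflamed than in every resting library of these 2 populations.

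**Figure D4:**
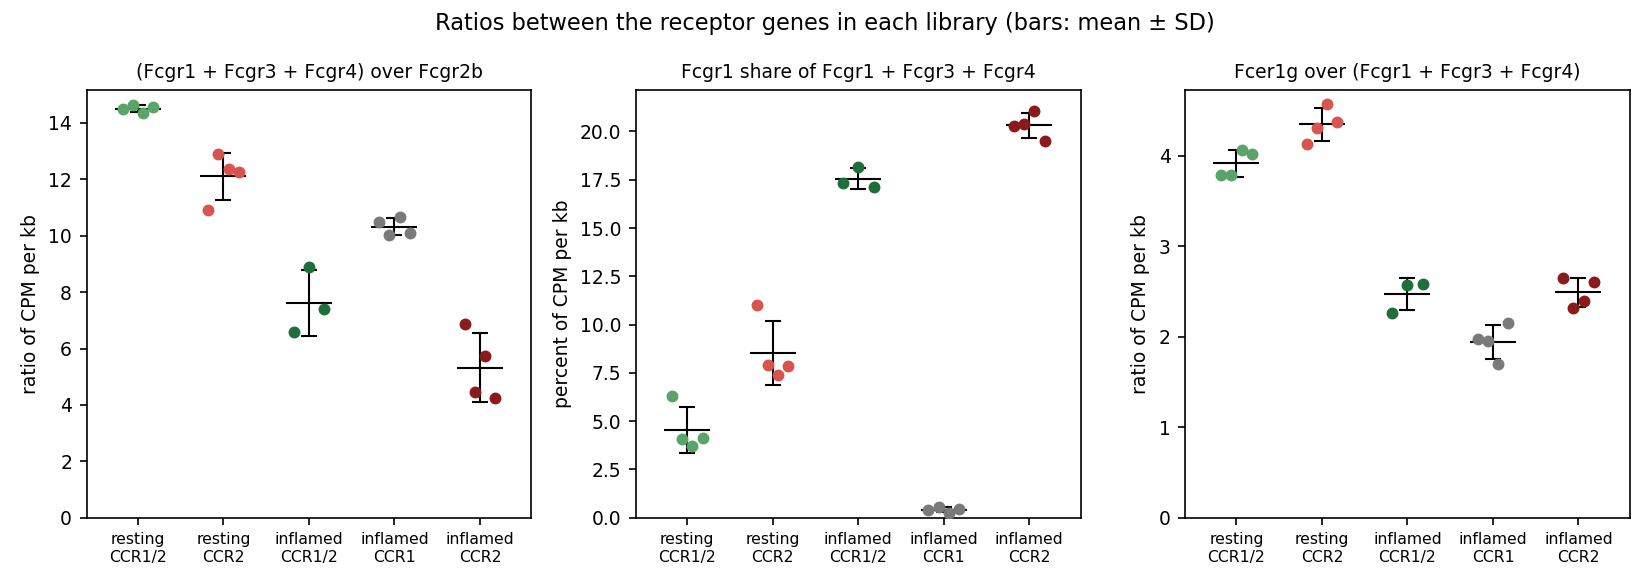
From left to right, the activating to inhibitory ratio, the Fcgr1 percentage of the activating receptors and Fcer1g over the activating receptors, all from CPM per kb on linear axes from 0, with 1 point per library and bars for mean ± SD. The inflamed CCR1/2+ve and CCR2+ve libraries have ratios of 4.24 to 8.87 in the left panel, below the resting range of 10.9 to 14.6.

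The genes that act with these receptors were then counted, from lists chosen with earlier results of the data known. At the adjusted p used for these counts, 16.9% of all genes passed between the resting populations, 47.8% and 46.0% with inflammation in CCR2+ve and CCR1/2+ve cells, and 48.1% and 43.2% in inflamed CCR1 against inflamed CCR2+ve and CCR1/2+ve cells, and a list near these shares is no result about the list. Of 21 tested ITAM kinases and adaptors, 8 were lower and 0 higher in resting CCR1/2+ve than CCR2+ve cells at an adjusted p below 0.05 (median log2 fold change -0.23, against 0.03 over all genes), and none met the fold cutoff. With inflammation, 11 rose and 6 fell in CCR2+ve cells (median 0.30, against -0.10 over all genes), and 11 rose and 6 fell in CCR1/2+ve cells (median 0.41, against -0.25). Card9, an adaptor of antifungal ITAM signaling, rose from 10.4 ± 0.2 to 56.3 ± 4.9 CPM in CCR2+ve cells (log2 fold change 2.37, adjusted p = 3.5e-10). Pik3cd, a PI3-kinase subunit, rose from 135.3 ± 3.0 to 496 ± 52 CPM (1.80, adjusted p = 1.4e-09), while the kinase Tec fell from 29.9 ± 1.7 to 7.38 ± 1.10 CPM (-2.09, adjusted p = 8.2e-09). In CCR1/2+ve cells the log2 fold changes of Card9, Pik3cd and Tec were 2.04, 1.68 and -2.16. In inflamed CCR1 against inflamed CCR2+ve cells, 14 of 21 were lower and 1 higher. Lat2, a linker of ITAM signaling, was at 1.91 ± 0.96 against 112.6 ± 5.3 CPM (-5.87, adjusted p = 2.9e-11), and Gab2 (-2.13) and Pik3cd (-1.78) were lower too. Against inflamed CCR1/2+ve cells, 14 were lower and 1 higher, led by Lat2 (-5.51), Blnk (-2.23, from 33 reads over 4 libraries against 115 over 3) and Gab2 (-1.92).

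Receptors with ITIMs, the motif that FcγRIIB also carries, did not move in 1 direction between the resting populations, where 3 of 13 were higher and 3 lower at an adjusted p below 0.05. With inflammation, 6 of 13 rose and 3 fell in CCR2+ve cells (median log2 fold change -0.06), and 5 rose and 3 fell in CCR1/2+ve cells (median 0.29). Cd300lf rose from 41.0 ± 7.7 to 321 ± 60 CPM in CCR2+ve cells (log2 fold change 2.90, adjusted p = 7.5e-10) and by 2.84 in CCR1/2+ve cells. Pilra (1.91 and 2.33) and Siglece (1.59 and 1.54) rose in both. Compared with inflamed CCR2+ve cells, 6 of 13 were lower and 5 higher in inflamed CCR1, and Pirb, a receptor for MHC class I, was at 64.3 ± 12.7 against 935 ± 118 CPM (-3.86, adjusted p = 2.1e-12), followed by Cd300a (-2.68) and Lilrb4a (-2.43). Against inflamed CCR1/2+ve cells, 7 were lower and 5 higher, with Pirb (-3.85), Lilrb4a (-2.60) and Cd300a (-2.52) first.

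Of the 13 inhibitory phosphatases and adaptors tested, 3 were lower in resting CCR1/2+ve cells at an adjusted p below 0.05, 3 rose and 3 fell with inflammation in CCR2+ve cells, and 4 rose and 4 fell in CCR1/2+ve cells. The 6 of 13 in CCR2+ve cells is near the share of all genes. Inpp5d, which encodes the SHIP phosphatase that FcγRIIB recruits, rose from 134.6 ± 9.5 to 307.9 ± 27.0 CPM in CCR1/2+ve cells (log2 fold change 1.07, adjusted p = 1.0e-06). Inppl1 fell in both (-1.60 and -1.57) and Ubash3b in CCR2+ve cells (-1.01). Inflamed CCR1 libraries had 8 lower and 2 higher than inflamed CCR2+ve cells, and 10 lower and 0 higher than inflamed CCR1/2+ve cells. Inppl1 had 1 read over the 4 inflamed CCR1 libraries against 301 over 4 inflamed CCR2+ve libraries, and Csk, which restrains Src kinases, was at 38.9 ± 3.2 against 144.3 ± 13.4 CPM (-1.89, adjusted p = 6.5e-10). Cblb was lower as well (-1.22).

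The list of receptors that pair with Fcer1g held Tyrobp as a second signaling chain, and 8 of 9 were tested. In resting cells 2 were lower in CCR1/2+ve cells, Clec4n, the Dectin-2 receptor (2.99 ± 1.47 against 7.05 ± 2.38 CPM, log2 fold change -1.16, adjusted p = 0.025) and Ncr1 (4 against 65 reads over 4 libraries each). With inflammation Clec4n rose from 7.05 ± 2.38 to 46.3 ± 25.1 CPM in CCR2+ve cells (2.63, adjusted p = 8.1e-05) and from 2.99 ± 1.47 to 36.1 ± 16.3 CPM in CCR1/2+ve cells (3.45, adjusted p = 9.3e-05). Clec4e, the Mincle receptor, rose in CCR1/2+ve cells (1.16, adjusted p = 0.00095), and Fcer1a, of the high-affinity IgE receptor, rose from 21 to 349 reads in CCR2+ve and from 14 to 291 reads in CCR1/2+ve cells. The summed level of the 6 basophil and mast cell markers in the table was higher in the same libraries, at 7.02 to 15.9 CPM in resting and 107.5 to 242.2 in inflamed CCR2+ve, and 7.92 to 32.5 and 131.7 to 179.1 in CCR1/2+ve libraries. Prss34 was the highest of them in inflamed cells, and their part in the rise of Fcer1a, or of Ms4a2 below, was not tested. Over the list, 3 rose and 3 fell in CCR2+ve cells, Ncr1 among the latter (65 to 11 reads), and 3 rose and 0 fell in CCR1/2+ve cells. Of these, 6 of 8 were lower in inflamed CCR1 than in inflamed CCR2+ve cells and 5 of 8 lower than in inflamed CCR1/2+ve cells, with Clec4n at 0.389 ± 0.115 CPM (-6.86 and -6.50), Clec4e (-3.22 and -3.62) and, in the latter, Clec4d (-3.25). Ncr1 had 0 reads there and 11 in inflamed CCR2+ve libraries, too few for a fold.

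Among 11 tested of 14 other Fc receptor and Fc receptor-like genes, 1 was higher and 1 lower between the resting populations, and 5 rose in each population with inflammation while 2 fell in CCR2+ve and 1 in CCR1/2+ve cells. Most of those named were low. Ms4a2, which is also in the basophil and mast cell list above, rose from 20 to 177 reads in CCR2+ve and from 41 to 172 in CCR1/2+ve cells, Fcrls from 57 to 145 reads in CCR1/2+ve cells, and Fcmr went from 20 to 0 reads in CCR2+ve cells. Fcrl1 in inflamed CCR1 was at 2.76 ± 0.68 CPM against 21.3 ± 7.9 in inflamed CCR2+ve cells (-2.95, adjusted p = 6.6e-08), with 4 genes lower and 1 higher, and 5 lower and 1 higher than in inflamed CCR1/2+ve cells. Fcrla had 3 reads there against 49 in inflamed CCR2+ve libraries, and Fcrls 17 against 127.

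The phagocytic actin machinery that these receptors engage was counted over 23 genes. In resting cells 3 were lower in CCR1/2+ve cells and 0 higher. With inflammation 13 rose and 4 fell in CCR2+ve cells (median log2 fold change 0.47), and 11 rose and 4 fell in CCR1/2+ve cells (median 0.45). Gsn, which severs actin filaments, rose from 247 ± 47 to 867 ± 146 CPM in CCR2+ve cells (1.75, adjusted p = 1.4e-07) and by 2.28 in CCR1/2+ve cells. In the other direction, the GTPase Rac1 fell from 825 ± 77 to 78.3 ± 10.2 CPM (-3.46, adjusted p = 3.2e-11) and the Arp2/3 subunit Arpc2 from 2434 ± 292 to 650.1 ± 133.5 CPM (-1.97, adjusted p = 2.1e-08) in CCR2+ve cells, and both fell in CCR1/2+ve cells (-3.30 and -1.81). In inflamed CCR1 against inflamed CCR2+ve cells 7 were higher and 9 lower, with Vasp higher (1.60) and Wipf1 (-1.44) and Rac1 (-1.24) lower, and against inflamed CCR1/2+ve cells 6 were higher and 8 lower, with Vasp higher (1.77) and Rac1 lower (-1.13). Between the inflamed CCR1/2+ve and CCR2+ve cells and in the interaction test, 0 of the 88 tested genes of these 6 lists passed with edgeR, and 15 and 14 had an unadjusted p below 0.05.

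Genes with the most similar pattern were found by the root mean square difference of mean-centered log2 CPM over the 19 libraries, among 7685 genes with a mean of at least 10 CPM (prior count 2). The points share libraries and groups, so these values describe likeness only. Nearest to Fcgr1 were Krt80 (difference 0.39) and Trim30c (0.41), and nearest to Fcgr2b were Myd88 (0.21) and Acox3 (0.25). For Fcgr3 they were Msrb1 (0.094) and Reep5 (0.11), and for Fcgr4 Cybb (0.26), a subunit of the phagocyte oxidase, and Abtb1 (0.27). The nearest genes to Fcer1g were Atraid (0.13) and Tyrobp (0.14), the other signaling chain of this kind in the list above, at 1465, 1671, 1469, 397 and 1385 mean CPM in resting CCR1/2+ve, resting CCR2+ve, inflamed CCR1/2+ve, inflamed CCR1 and inflamed CCR2+ve libraries. Nearest to Fcgrt were Padi2 (0.34) and P2ry6 (0.35). No member was among the 2 nearest genes of another member: Fcgr1 and Fcgrt were 1.22 apart, Fcgr1 and Fcgr2b 1.88, and Fcgr3 and Fcer1g 0.45.

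Finally, genes within 100 kb of each member were counted. With inflammation in CCR2+ve cells, where 28.6% of all genes were called and more were lower than higher, 0 of 10 tested neighbors of Fcgr1 were called higher and 4 lower. In CCR1/2+ve cells, where 28.5% of all genes were called, 0 were called higher and 5 lower, and Hist2h4 was lower in both (-1.33 and -2.01). Of the 9 tested neighbors of Fcgr2b, 2 were called higher and 2 lower in CCR2+ve cells. The 2 higher ones, Gm38204 and Gm10522, averaged 0.239 and 0.458 CPM in inflamed CCR2+ve libraries. Gm38204 overlaps exons of Fcgr2b, and which strand was counted is not given in the sources used here. Near Fcer1g, 1 of 12 was called higher and 3 lower in each population with inflammation, and near Fcgrt 1 of 17 was called higher in each, Aldh16a1 (32.4 to 119.8 CPM in CCR2+ve cells). In inflamed CCR1 against inflamed CCR2+ve cells, 31.3% of all genes were called. There, 1 of 10 neighbors of Fcgr1 was called lower (Hist2h2be, -1.91), as were 4 of 9 of Fcgr2b (Atf6, -2.15, and Fcrla, Gm38204 and Gm10522, all below 1 CPM), 3 of 4 of Fcgr3 and 4 of 6 of Fcgr4. The last 2 counts both hold Gm38204 and Gm10522 again, and Cfap126 (-1.84), and that of Fcgr4 also holds Fcrla again. They are thus not separate from the count of Fcgr2b. For Fcgrt it was 2 of 17, Rras (-6.55) and Rcn3 (-1.48), and for Fcer1g 0 of 12, where 2 were called higher.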

How the data were processed

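Paired-end reads were checked by the authors using fastp. Alignment to GRCm38 used STAR 2.7.10a and kept single alignments with at least 35 matched bases. As deposited, the values are raw read counts per gene of Ensembl release 91, without normalization. Reads that fit several genes are lost, which can lower counts of similar genes. Groups were taken from sample titles. Of 20 count columns, 1 matched no sample and was not used in any step. The tests covered 18652 genes whose mean over the 19 libraries reached 1 read, with edgeR 4.0.16 in R 4.3.3 (TMM, robust quasi-likelihood fit, two-sided, Benjamini-Hochberg over all genes tested) on the 2 groups compared, or on 15 libraries for the interaction. Standard errors are the log2 fold change over the root of F. Intervals printed as 95% take their t quantile from the prior degrees of freedom of the first gene alone. The residual degrees of freedom that the F test adds were left out, so the intervals can be wider than 95%. Fcgrt with inflammation in CCR1/2+ve cells thus had an interval that holds 0 but an unadjusted p below 0.05 in the F test. CPM use TMM factors over the 19 libraries, and levels per kb divide them by the union of GENCODE M21 exons. Results were recomputed with DESeq2 1.42.0, RLE size factors in edgeR, no filter on low counts, filterByExpr, 1 fit of all libraries, replicate blocks, each library left out, and, for the ratio, the longest transcript.

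The members, lists and tests were chosen with earlier results of these data known. Named genes are the 6 members, the 2 genes nearest to each in pattern, up to 3 genes per list and comparison with the largest fold change past both cutoffs, neighbors past both cutoffs, and markers at 0 or highest in their list. Csf1r, Ccr1, Ccr2, Ly6c2, Itgam, Camp, Ltf, Mmp8, Mmp9 and Ly6g were chosen after their values were seen. The same holds for Vcam1, C1qc, Axl, Mrc1, Flt3, Cd209a, H2-Ab1 and Xcr1. Replicate numbers were checked on 8878 genes. Same-numbered libraries had correlated deviations from their group means in the resting populations (0.29 to 0.54 over 4 pairs, against -0.37 to 0.18 for unlike numbers). In inflamed CCR1 with inflamed CCR2+ve libraries the correlations were weak (0.11 to 0.21, against -0.20 to 0.08). Inflamed CCR1/2+ve libraries paired with neither (-0.27 to 0.07 with inflamed CCR1 and -0.27 to 0.43 with inflamed CCR2+ve). The numbers are therefore read as pairs in the resting populations. They are read so less firmly in inflamed CCR1 with inflamed CCR2+ve libraries, and the labels do not give a shared source. The main tests did not use these pairs, which enter only in the alternative with the replicate block.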

Additional observations from a re-analysis of the deposited data

How the results depend on the processing

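Of 612 alternative log2 fold changes of the 6 genes, 586 kept their direction and their side of an adjusted p of 0.05, 1 no longer passed, 14 newly passed and 11 changed sign. Sign changes were small: Fcer1g with inflammation in CCR1/2+ve cells (-0.00081 with filterByExpr, and -0.049 to 0.057 with 1 library left out), Fcer1g between the inflamed populations (-0.0027 to 0.11 with 1 library left out), Fcgr4 in inflamed CCR1 against inflamed CCR1/2+ve cells (0.040 with the replicate block, -0.20 to 0.23 with 1 library left out) and the interaction of Fcgr2b (-0.095 to 0.14 with 1 library left out). The members called were 2 and 2 with inflammation, 0 between the inflamed populations and 5 for inflamed CCR1 against inflamed CCR1/2+ve cells under all alternatives run. They were 4 to 5 for inflamed CCR1 against inflamed CCR2+ve cells, and 0 to 1 between the resting populations, 0 without resting CCR2+ve replicate 1. In the interaction, 0 members passed, but 2 with DESeq2 (Fcgr1 and Fcer1g), 1 with all 19 libraries in 1 fit, 1 with the replicate block and 0 to 1 with 1 library left out, 1 without resting CCR1/2+ve replicate 1 or resting CCR2+ve replicate 2. That 1 was Fcgr1 in each, and the cause was not tested.

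All genes called changed most where few passed. Between the inflamed populations, 27 were called, 106 with DESeq2, 53 with no filter, 53 with all libraries in 1 fit, 83 with the replicate block, and 15 to 42 with 1 library left out (15 without inflamed CCR1/2+ve replicate 3, 17 without replicate 4, 42 without inflamed CCR2+ve replicate 1). In the interaction, 74 were called (45 higher), 545 with DESeq2, 113 with RLE size factors (85 higher), 145 with no filter, 122 with filterByExpr, 187 with all libraries in 1 fit and 222 with the replicate block. With 1 library left out the interaction called 0 to 253, 0 without inflamed CCR1/2+ve replicate 3 and 253 without inflamed CCR2+ve replicate 4, and further 5, 38 and 46 without resting CCR1/2+ve replicates 2, 3 and 4, then 48, 209, 9 and 32 without resting CCR2+ve replicates 1 to 4, and 7 and 30 without inflamed CCR2+ve replicates 1 and 2. Between the resting populations 792 were called, 518 without resting CCR2+ve replicate 4 and up to 1012 with another library left out, and 1055 with the replicate block.

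The replicate block made Fcgr4 (0.70, adjusted p = 0.0084) and Fcgrt (-0.36, adjusted p = 0.041) pass with inflammation in CCR1/2+ve cells, and Fcgr2b (-0.59, adjusted p = 0.012) and Fcgrt (-0.77, adjusted p = 0.018) between the inflamed populations, groups whose numbers did not pair the samples (lowest correlations 0.06 and -0.27). In the 2 comparisons whose numbers were read as pairs, it changed no member called, and moved Fcgr3 in resting cells, and no other member, across an adjusted p of 0.05. Fcgr4 passed without inflamed CCR2+ve replicate 3 in inflamed CCR1 against inflamed CCR2+ve cells (0.59, adjusted p = 0.019). Taking the longest transcript as length, the activating to inhibitory ratio was 11.3 and 9.33 in resting and 5.75 and 4.00 in inflamed CCR1/2+ve and CCR2+ve cells and 8.08 in inflamed CCR1, and the order of the groups did not change. The order of the genes and the ratio of Fcgr1 to Fcgr2b were not recomputed on that length. Of 60 alternative CPM levels, 54 moved by less than 1 SD. Fcgr4 had 163 to 421 reads per library and an SD of 27.8 to 35.3% of the mean in the CCR1/2+ve and CCR2+ve groups. The lowest counts were those of Fcgr1 (53 to 89 reads) and Fcgrt (19 to 44) in inflamed CCR1.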
